A study of Mus musculus with 12 samples.

Results

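The 10 genes described here encode the core of transforming growth factor beta (TGF-beta) signalling: the ligands Tgfb1, Tgfb2 and Tgfb3, the latent binding proteins Ltbp1 and Ltbp3, the receptors Tgfbr1, Tgfbr2 and Acvrl1, and the co-receptors Tgfbr3 and Eng. They were chosen by name, as the rows of each table whose gene symbol is on this list. All 10 symbols were found, each on 1 row, among 53090 gene rows, and all 10 passed the filter on low counts that left 18638 genes for testing.

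The study sequenced RNA from retinas of C57BL/6 mice, pulled down through an HA tag and labelled as polysome mRNA of retinal pericytes. All 12 libraries came from pups injected with tamoxifen on postnatal days 1 and 2. Retinas were taken at postnatal day 3 (P3, 6 libraries) or day 9 (P9, 6 libraries), and the design text asks for the signature of mural cells at these 2 ages. The time since tamoxifen differed with age, and the 2 cannot be told apart. The sources used here do not give the driver of the tag, and hence the cells that carried it, or say whether each library is 1 animal. If libraries of an age were not separate animals, the p-values measure only library-to-library spread, possibly technical.

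TGF-beta ligands are secreted in a latent form, folded inside their own propeptide, and latent TGF-beta binding proteins tether this complex to the matrix until integrins or proteases free the ligand. The active dimer binds the type II receptor TGFBR2, which recruits and phosphorylates a type I receptor. ALK5, encoded by Tgfbr1, passes the signal to SMAD2 and SMAD3, whereas ALK1, encoded by Acvrl1, passes it to SMAD1, SMAD5 and SMAD9. Betaglycan (Tgfbr3) and endoglin (Eng) bind ligand without kinase activity of their own. In growing vessels the pathway acts between endothelial cells and the mural cells around them, and ALK1 and endoglin are best known from endothelium.

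Library totals ran from 26839599 to 37776172 expected counts, so that 1 CPM (the unit of level used here, counts scaled to library size with TMM) stood for 25.8 to 38.5 counts. The lowest count of a member in a library was 28, for Tgfb1. The pericyte label was checked against 18 markers. Their summed level was 861 ± 397 CPM (SD, n = 6) at P3 and 4462 ± 1208 CPM at P9, with no overlap between the ages, and no marker stayed under 1 CPM in all libraries. Rgs5 held the largest part of this sum, at 395 ± 272 CPM at P3 and 2698 ± 762 CPM at P9. In the edgeR fit used below 13 of the 18 markers rose, 1 (Foxd1) fell and 4 did not pass. Over all tested genes 26.1% rose and 25.6% fell. Markers of other retinal cells were present and moved as well: of 16 marker sums, 15 differed between the ages by an exact two-sided permutation test with adjustment over the 16. Summed rod markers went from 1925 ± 591 to 11779 ± 3367 CPM and summed bipolar markers from 187 ± 23.1 to 2298 ± 399 CPM. Retinal progenitor markers fell from 1710 ± 225 to 915 ± 81.9 CPM, and lens markers from 6249 ± 2023 to 219 ± 343 CPM (adjusted p = 0.00346 for each of these 5 sums; 6 of 6 libraries at P9 outside the P3 range). The part of these other cells in the changes below was not tested, and in such bulk samples fewer cells of a type cannot be told apart from less RNA per cell.

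Between P3 and P9 the members changed in both directions. Tgfb1, Tgfb2, Tgfbr2, Acvrl1 and Eng rose, Ltbp1, Ltbp3 and Tgfbr1 fell, and Tgfb3 and Tgfbr3 did not pass an adjusted p of 0.05 (edgeR quasi-likelihood test, Benjamini-Hochberg over all tested genes). That is 8 of 10 members called, against 51.8% of all tested genes. In this series 26.1% of tested genes rose and 25.6% fell, so a share near those is no result about the members. The ranges of P3 and P9 were separate for 7 members, 5 higher and 2 lower at P9, against 31.7% of tested genes (16.3% higher and 15.4% lower). The median log2 fold change, P9 over P3, was 0.86 over the members and -0.0018 over all tested genes.

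**Figure D1:**
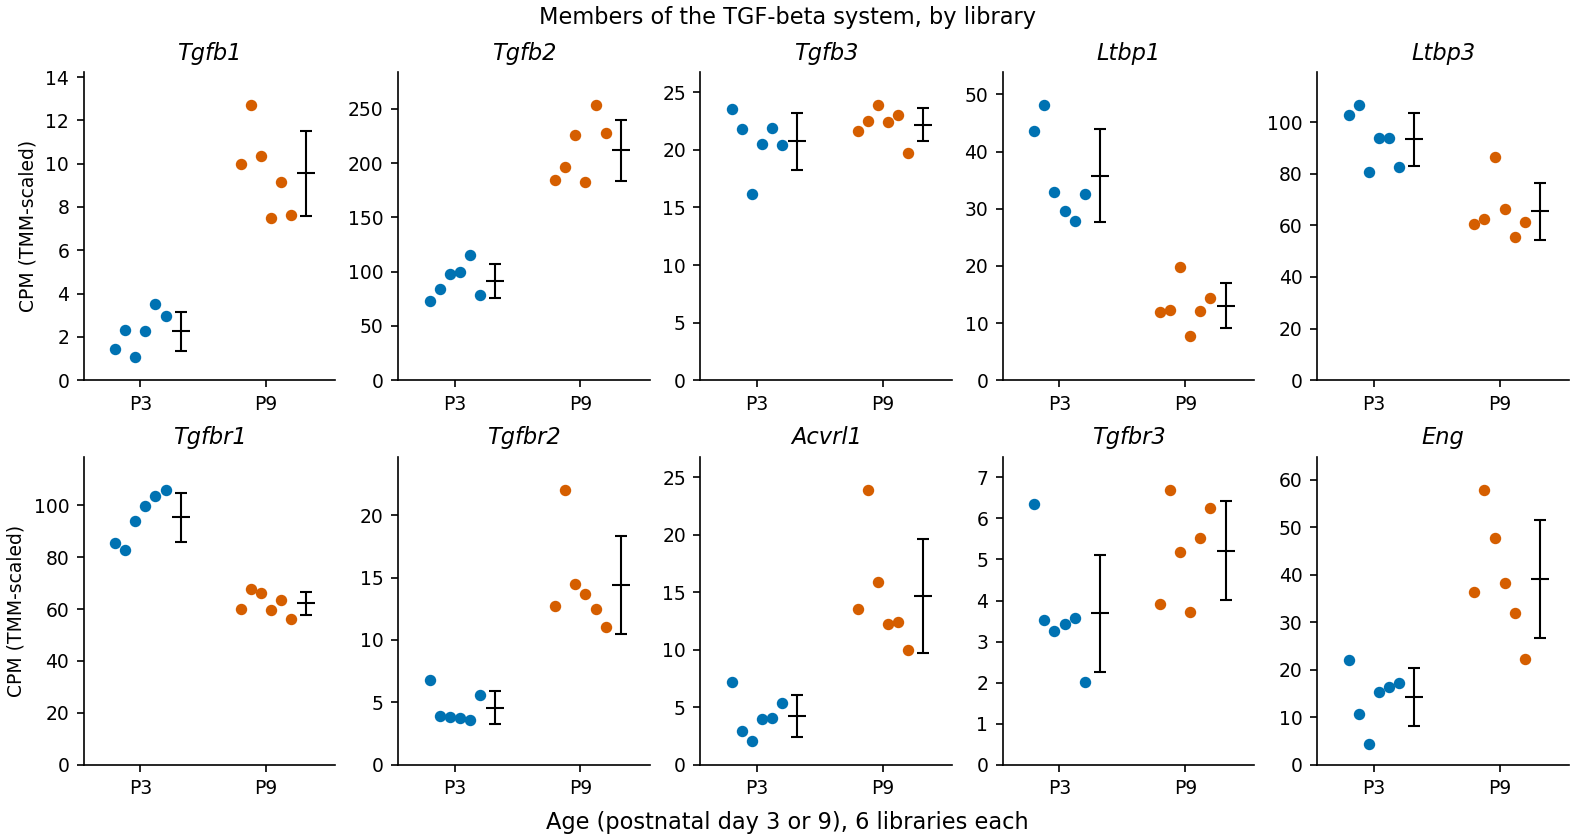
Level of each member in each library, in TMM-scaled CPM on a linear axis that starts at 0. Points are the 6 libraries of P3 (blue) and of P9 (orange), and the black bars are mean ± SD. Tgfb1, Tgfb2, Tgfbr2, Acvrl1 and Eng are higher in all 6 P9 libraries than in any P3 library, Ltbp1 and Tgfbr1 are lower in all 6, and Tgfb3, Ltbp3 and Tgfbr3 overlap.

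The 3 ligands bind the same receptors but are made by different genes, and they did not move together. Tgfb1 (ENSMUSG00000002603.15, chromosome 7, 25687002 to 25705077), the ligand most often tied to mural cell differentiation, was the scarcest in counts. At P3 it ran from 1.09 CPM through a median of 2.30 to 3.51 CPM, and at P9 from 7.49 through 9.56 to 12.7 CPM. Every P9 library lay above the highest P3 library, and the rise was 4.20-fold (log2 fold change 2.07 ± 0.26, SE; edgeR adjusted p = 1.12e-05; higher in 6 of 6 libraries).

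Tgfb2 (ENSMUSG00000039239.14, chromosome 1, 186622787 to 186709697), a ligand with a wide role in eye development, held the most counts of the 3. Its P3 libraries ran from 72.8 through a median of 90.9 to 116 CPM and its P9 libraries from 183 through 211 to 253 CPM. The ages did not overlap, and the 2.32-fold rise (log2 fold change 1.21 ± 0.12, SE; edgeR adjusted p = 1.12e-06) had the smallest standard error among the 5 members that rose.

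Tgfb3 (ENSMUSG00000021253.7, chromosome 12, 86056743 to 86079041), the third ligand, ran from 16.2 through 21.2 to 23.6 CPM at P3 and from 19.7 through 22.4 to 23.9 CPM at P9. The ages overlapped almost wholly. The fold change was 1.07 with a 95% interval from 0.93 to 1.23 (edgeR adjusted p = 0.408), so a change of the size seen in the other 2 ligands lay outside its interval.

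RefSeq promoters of GRCm38.p6, the assembly known as mm10, were found for 7 of the 10 members; Tgfb3, Acvrl1 and Tgfbr3 had no entry. The 250 bases before the start are shown for the ligand genes that rose, because their promoters are unlike. Capitals mark matches, on either strand, to the GC box GGGCGG, the TATA box TATAAA, the CCAAT box CCAAT and the Smad-binding letters CAGAC. No match to one motif overlapped another in these 2 windows.

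Tgfb1, chr7:25686752-25687001, plus strand: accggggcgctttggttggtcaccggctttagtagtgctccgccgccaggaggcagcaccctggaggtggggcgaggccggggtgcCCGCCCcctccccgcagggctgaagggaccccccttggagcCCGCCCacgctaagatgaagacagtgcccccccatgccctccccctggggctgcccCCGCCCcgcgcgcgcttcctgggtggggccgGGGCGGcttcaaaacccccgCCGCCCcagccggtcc

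Tgfb2, chr1:186705990-186706239, minus strand: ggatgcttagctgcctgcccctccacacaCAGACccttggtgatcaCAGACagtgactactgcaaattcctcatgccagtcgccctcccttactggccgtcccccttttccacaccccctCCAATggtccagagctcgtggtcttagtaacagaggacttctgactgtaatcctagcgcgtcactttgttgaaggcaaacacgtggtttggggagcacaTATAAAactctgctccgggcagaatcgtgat

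The Tgfb1 window held 75.2% G and C, above 96.1% of the 32851 promoter entries, with 5 GC boxes and none of the other 3 motifs. The Tgfb2 window belongs to a start inside the annotated span of the gene. It held 53.6% G and C, near the median entry (52.4%), with 1 TATA box that begins 31 bases before the start, 1 CCAAT box and 2 CAGAC matches, but no GC box. In windows of this length GGGCGG occurred in 32.7% of all entries, TATAAA in 12.4%, CCAAT in 33.8% and CAGAC in 42.2%. A match describes letters and is not a bound site.

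The 2 latent binding proteins fell. Ltbp1 (ENSMUSG00000001870.15, chromosome 17, 75005480 to 75392512), which anchors latent TGF-beta in the matrix, ran from 27.9 through 32.8 to 48.1 CPM at P3 and from 7.67 through 12.2 to 19.9 CPM at P9. Its highest P9 library lay below its lowest P3 library, and its level was 2.74-fold lower at P9 (log2 fold change -1.45 ± 0.20, SE; edgeR adjusted p = 2.39e-05; lower in 6 of 6 libraries).

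Ltbp3 (ENSMUSG00000024940.10, chromosome 19, 5740900 to 5758536), a second carrier of the latent complex known for its part in skeletal and dental growth, ran from 80.9 through 93.8 to 107 CPM at P3. At P9 it ran from 55.6 through 61.7 to 86.6 CPM. P9 replicate 3, at 86.6 CPM, was the single P9 library within the P3 range. Ltbp3 was 1.43-fold lower at P9 (log2 fold change -0.51 ± 0.11, SE; edgeR adjusted p = 0.00094).

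Of the 3 receptors, both directions were seen. Tgfbr1 (ENSMUSG00000007613.15, chromosome 4, 47353222 to 47414926), the type I receptor ALK5, ran from 82.9 through 97.0 to 106 CPM at P3 and from 56.1 through 61.8 to 67.7 CPM at P9. All 6 P9 libraries lay below all 6 P3 libraries, and the level was 1.53-fold lower (log2 fold change -0.62 ± 0.079, SE; edgeR adjusted p = 1.37e-05).

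Tgfbr2 (ENSMUSG00000032440.13, chromosome 9, 116087695 to 116175363), the type II receptor that binds TGF-beta first, rose while its partner fell. It ran from 3.54 through 3.86 to 6.80 CPM at P3 and from 11.1 through 13.2 to 22.0 CPM at P9. The ages did not overlap, and the rise was 3.15-fold (log2 fold change 1.66 ± 0.21, SE; edgeR adjusted p = 1.12e-05). P9 replicate 2 stood above the other P9 libraries, which reached 14.5 CPM at most.

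Acvrl1 (ENSMUSG00000000530.16, chromosome 15, 101128522 to 101145336), the type I receptor ALK1, which also serves the circulating ligands BMP9 and BMP10, moved like Tgfbr2. It ran from 2.02 through 4.02 to 7.20 CPM at P3 and from 9.93 through 13.0 to 23.9 CPM at P9, without overlap. It rose 3.43-fold (log2 fold change 1.78 ± 0.28, SE; edgeR adjusted p = 9.25e-05), and its highest library was again P9 replicate 2.

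The promoters of the type I receptor gene that fell and of the type II receptor gene that rose are shown with the same motifs in capitals.

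Tgfbr1, chr4:47352972-47353221, plus strand: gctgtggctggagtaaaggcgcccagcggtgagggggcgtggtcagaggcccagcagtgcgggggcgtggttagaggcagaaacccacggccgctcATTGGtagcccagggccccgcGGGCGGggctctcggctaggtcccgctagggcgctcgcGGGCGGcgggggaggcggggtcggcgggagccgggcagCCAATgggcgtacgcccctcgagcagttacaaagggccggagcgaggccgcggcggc

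Tgfbr2, chr9:116175364-116175613, minus strand: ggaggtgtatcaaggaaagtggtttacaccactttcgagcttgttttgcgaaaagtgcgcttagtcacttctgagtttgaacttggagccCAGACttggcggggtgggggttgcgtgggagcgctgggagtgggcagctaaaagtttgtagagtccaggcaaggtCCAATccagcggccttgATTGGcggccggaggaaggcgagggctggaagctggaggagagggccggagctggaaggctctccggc

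RefSeq has 2 entries for Tgfbr1, of which the first is shown. It held 74.8% G and C, 2 GC boxes and 2 CCAAT boxes, whereas the second (chr4:47385966-47386215) held 52.8% G and C and 1 CAGAC match, with none of the other 3 motifs. The Tgfbr2 window held 58.4% G and C, no GC box, 2 CCAAT boxes and 1 CAGAC match. None of these windows held TATAAA.

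The co-receptors differed in depth and in outcome. Eng (ENSMUSG00000026814.16, chromosome 2, 32646595 to 32682669), endoglin, ran from 4.30 through 15.9 to 21.9 CPM at P3 and from 22.1 through 37.4 to 57.9 CPM at P9. The gap between the ages was narrow, 21.9 CPM in P3 replicate 1 against 22.1 CPM in P9 replicate 6. Its rise was 2.72-fold (log2 fold change 1.45 ± 0.30, SE; edgeR adjusted p = 0.00106), with the largest standard error of all 10 members.

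Tgfbr3 (ENSMUSG00000029287.14, chromosome 5, 107106567 to 107289629), betaglycan, which presents TGF-beta 2 to the receptors, ran from 2.02 through 3.47 to 6.34 CPM at P3 and from 3.72 through 5.36 to 6.70 CPM at P9. The ages overlapped because of P3 replicate 1, at 6.34 CPM, while the other P3 libraries reached 3.57 CPM at most. The fold change was 1.41 with a 95% interval from 0.98 to 2.04 (edgeR adjusted p = 0.107). Without P3 replicate 1 the call changed (log2 fold change 0.72, edgeR adjusted p = 0.0140).

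**Figure D2:**
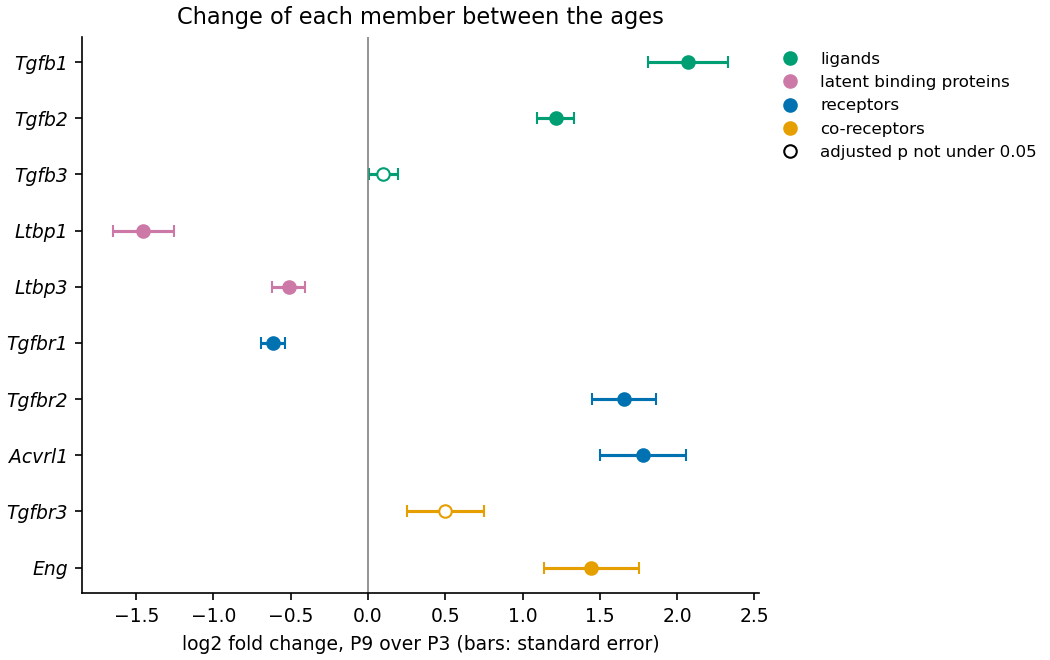
Log2 fold change of each member, P9 over P3, with its standard error from the edgeR fit on 12 libraries; colours mark the role of the gene, and open points did not pass an adjusted p of 0.05. The latent binding proteins (-1.45 and -0.51) and Tgfbr1 (-0.62) lie to the left of 0 and Tgfbr2 (1.66), Acvrl1 (1.78) and Eng (1.45) to the right.

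Whether members moved apart from each other was tested on ratios of counts within a library, which need no scaling between libraries. Such a ratio is not per transcript length, so only its change between ages is read. There were 8 ratios, each tested between ages by exact two-sided permutation over the 12 libraries, for which the smallest possible p is 0.00216, with adjustment over the 8.

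The ratios of Tgfbr2 and of Acvrl1 to Tgfbr1 moved most among the 6 ratios of 2 members. Per count of Tgfbr1, libraries held 0.034 to 0.080 counts of Tgfbr2 at P3 and 0.20 to 0.33 at P9, a 4.84-fold higher ratio (log2 difference 2.27; adjusted p = 0.00289; 6 of 6 libraries higher). Acvrl1 per count of Tgfbr1 went from a range of 0.022 to 0.084 at P3 to 0.18 to 0.35 at P9, a 5.45-fold higher ratio (log2 difference 2.45; adjusted p = 0.00289; 6 of 6 libraries higher). In both ratios Tgfbr1 itself was lower and its counterpart higher at P9, each without overlap. Both ratios therefore had to separate between the ages, and their p adds nothing to the calls of the single genes.

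Among ligands, Tgfb2 gained on Tgfb3 and lost ground to Tgfb1. The ratio of Tgfb2 to Tgfb3 was 3.09 to 6.04 at P3 and 8.16 to 11.5 at P9, 2.17-fold higher (adjusted p = 0.00289; 6 of 6 libraries higher). The ratio of Tgfb2 to Tgfb1 had a geometric mean of 42.7 at P3 and 22.4 at P9, 1.91-fold lower with overlapping ages (adjusted p = 0.00742).

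Ltbp1 fell further than Ltbp3. Their ratio was 0.30 to 0.45 at P3 and 0.12 to 0.24 at P9, 1.94-fold lower without overlap (adjusted p = 0.00289). The ratio of Eng to Tgfbr3 went from a geometric mean of 3.65 to one of 7.32, with overlapping ages (adjusted p = 0.0390). That last ratio missed the threshold when any of P3 replicates 1, 2 and 3 or P9 replicates 1, 2, 3 and 4 was left out (exact permutation adjusted p of 0.0671, 0.0693, 0.0779, 0.0693, 0.0693, 0.0693 and 0.0714).

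**Figure D3:**
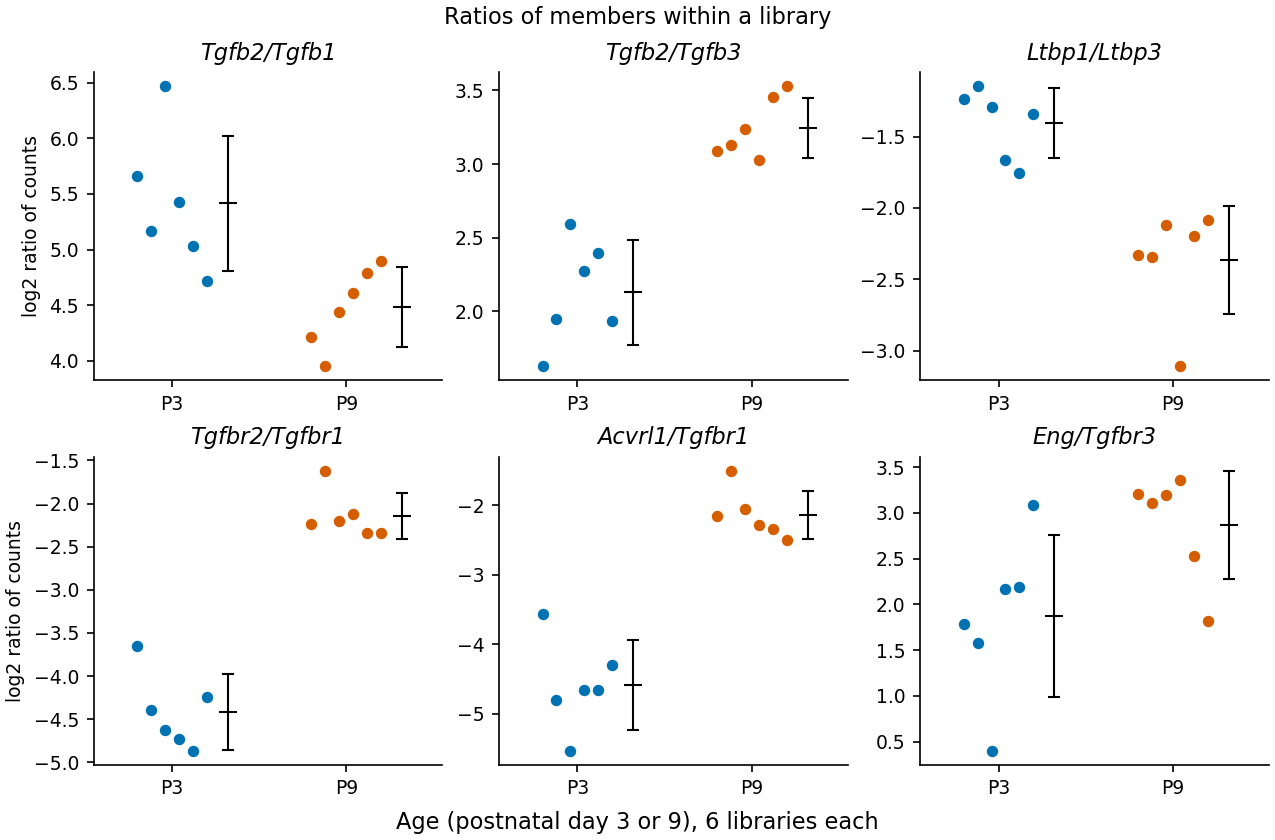
Log2 ratio of the counts of 2 members in each library, for 6 pairs. Points are the 6 libraries of P3 (blue) and of P9 (orange), and the black bars are mean ± SD. The ratios Tgfb2/Tgfb3, Tgfbr2/Tgfbr1 and Acvrl1/Tgfbr1 are higher at P9 without overlap, Ltbp1/Ltbp3 is lower without overlap, and Tgfb2/Tgfb1 and Eng/Tgfbr3 overlap.

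Endoglin and ALK1 are genes of endothelium, so their levels were set against a list of 20 endothelial markers, of which Esm1 stayed under 1 CPM in all libraries. Kdr, a VEGF receptor gene that neural retina also expresses, made up 81.8% to 95.6% of the summed list at P3 and 65.2% to 79.3% at P9, at 926 ± 79.5 and 603 ± 30.7 CPM. Against the sum with Kdr, Eng was 3.67-fold and Acvrl1 4.47-fold higher at P9 (exact permutation adjusted p = 0.00289 for both). Kdr was then left out, a choice made after seeing the data. The sum of the other 19 markers went from 96.4 ± 46.8 to 212 ± 53.8 CPM. Per unit of that sum, Eng was 1.24-fold higher at P9 with overlapping ages (exact permutation adjusted p = 0.145). Acvrl1 was 1.51-fold higher without overlap (adjusted p = 0.00346).

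Libraries of the same age with more endothelial marker RNA also held more of these receptors. After each age mean was subtracted from the log2 values, Acvrl1 followed the 19 markers with r = 0.96 over 12 libraries (permutation within ages, p = 6.0e-05, adjusted over 20 correlations p = 0.0012; rho = 0.84, permutation p = 0.00245, adjusted p = 0.0245). Without P3 replicates 1 and 3, the 2 libraries farthest from the median of the sum, r was 0.91. Eng gave r = 0.87 (permutation p = 0.00065, adjusted p = 0.0065; rho = 0.88, permutation p = 0.00055, adjusted p = 0.011), and 0.76 without those 2 libraries. Tgfbr2 gave r = 0.86 (permutation p = 0.001, adjusted p = 0.00667; rho = 0.78, permutation p = 0.00523, adjusted p = 0.0349), and 0.92 without them.

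Within P3 alone r was 0.98 for Acvrl1, 0.88 for Eng and 0.86 for Tgfbr2, and within P9 alone 0.92, 0.87 and 0.97. P9 replicate 2, the highest library for all 3 genes, had the highest sum of pericyte markers of all libraries (6472 CPM). It also had the highest sum of the 19 markers (315 CPM, against at most 215 CPM in the other P9 libraries). With Kdr kept in the sum, as first planned, none of these 3 correlations passed (r of 0.31, 0.26 and 0.27 for Acvrl1, Eng and Tgfbr2; permutation adjusted p of 0.569, 0.599 and 0.599), and Tgfbr1 was the gene that did (r = 0.85, permutation adjusted p = 0.0172; rho = 0.86, permutation adjusted p = 0.0218; r = 0.82 without P3 replicate 2 and P9 replicate 2). Tgfbr1 lost that relation without Kdr (r = 0.16, permutation adjusted p = 0.802).

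No member's relation to the summed 18 pericyte markers passed the adjustment, although Eng did by r with the mean of log2 marker levels in place of the sum (r = 0.80, permutation adjusted p = 0.0269, but rho = 0.73, permutation adjusted p = 0.0845). The highest were Tgfb1 (r = 0.76, permutation p = 0.0188, adjusted p = 0.126; rho = 0.59, permutation p = 0.0814) and Eng (r = 0.72, permutation p = 0.0172, adjusted p = 0.126; rho = 0.58, permutation p = 0.0740). Without P3 replicates 3 and 5 the r of Tgfb1 was 0.45 and that of Eng 0.55. Within P9 alone r with the pericyte sum was 0.90 for Acvrl1, 0.94 for Eng and 0.92 for Tgfbr2. Within P3 alone it was 0.39, 0.65 and -0.28. In the P9 libraries the relation of these 3 genes to endothelial markers was thus not particular to those markers. Among P3 libraries the erythroid marker sum was highest in replicate 1 (87.8 CPM) and lowest in replicate 3 (18.8 CPM). Acvrl1 and Eng had the same highest and lowest P3 libraries. Relations to marker sums other than pericyte and endothelial were not tested. At P3 the relation thus cannot be called particular to endothelial markers either. Tgfb2 had r = 0.25 with the pericyte markers (adjusted permutation p = 0.608) and -0.61 with the 19 endothelial markers (adjusted permutation p = 0.180).

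**Figure D4:**
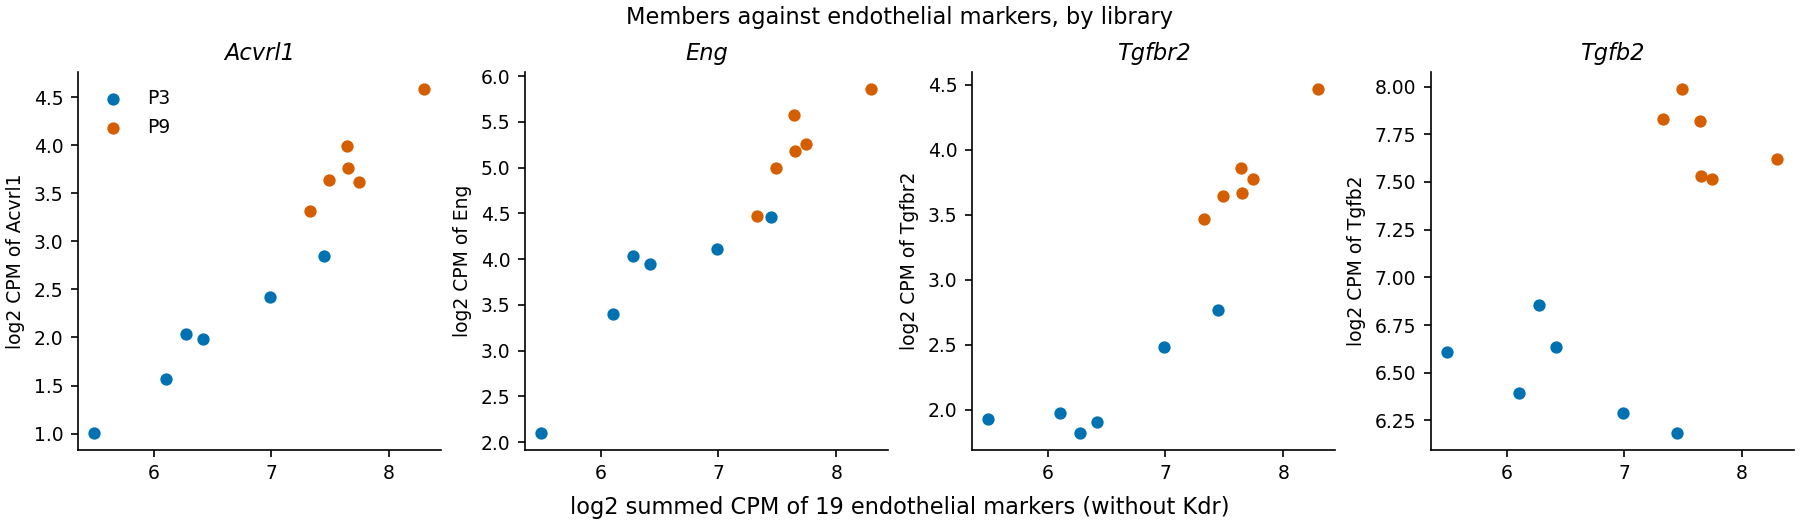
Log2 CPM of Acvrl1, Eng, Tgfbr2 and Tgfb2 against the log2 summed CPM of 19 endothelial markers, Kdr left out, with 1 point per library (blue P3, orange P9). Within each age Acvrl1, Eng and Tgfbr2 lie higher where the marker sum is higher (age-centred r of 0.96, 0.87 and 0.86), and Tgfb2 does not (r = -0.61).

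The genes most like each member were looked up by the same age-centred r over 12 libraries, among 10477 genes or 1 fewer with a mean of at least 10 CPM. These are the best of many and are given as a description. For Acvrl1 they were Cd93 (0.95), Flt1 (0.95) and Sft2d2 (0.94), and for Eng Sft2d2 (0.96), Flt1 (0.94) and Cd93 (0.93). Flt1 and Cd93 encode a VEGF receptor and a membrane protein of endothelium. Tgfbr2 was most like Tmem164 (0.92), Egfl7 (0.89) and Fpgt (0.87), of which Egfl7 is an endothelial secreted factor. Flt1 and Egfl7 are on the list of endothelial markers used above, so their place here repeats that relation. Tgfb2 was most like Etl4 (0.95), Tenm2 (0.95) and Ncam1 (0.94), the last 2 being adhesion genes of neurons. The closest gene to Tgfb3 was the member Eng (0.86), to Tgfbr1 Calu (0.96), to Tgfb1 Med22 (0.90), to Ltbp1 Ighmbp2 (0.87), to Ltbp3 Wdr4 (0.89) and to Tgfbr3 Slc9a3r1 (0.90).

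The calls were repeated with the mean level of a marker list in the model. With the endothelial mean, 7 members were called, against 35.5% of all tested genes in that fit. Eng was not called (log2 fold change 0.59, edgeR adjusted p = 0.162), and the log2 fold change of Acvrl1 was 0.94 in place of 1.78. With the pericyte mean, 2 members were called, against 7.13% of tested genes. These were Tgfb2 (log2 fold change 1.05, edgeR adjusted p = 0.0309) and Tgfbr1 (-0.87, edgeR adjusted p = 0.00752). The other 6 calls were lost in unlike ways. The log2 fold change of Ltbp1 was -1.24 in place of -1.45 and that of Ltbp3 -0.75 in place of -0.51 (edgeR adjusted p of 0.157 and 0.0915), and Tgfbr2 was at 1.13 in place of 1.66 (adjusted p = 0.232). Tgfb1 was at 0.78 in place of 2.07, Acvrl1 at 0.26 in place of 1.78 and Eng at -0.63 in place of 1.45 (edgeR adjusted p of 0.432, 0.866 and 0.580). With the retinal progenitor mean edgeR called 0 members and 0% of all tested genes, where the unadjusted p was under 0.05 for 0 members and 295 genes; only edgeR was run in this way. Age shared 49.9%, 81.9% and 97.1% of the variance of the endothelial, pericyte and progenitor means, so that in the last of these fits little of the age difference could be estimated apart from the markers. The pericyte fit has the same limit to a lesser degree, so a call lost there does not tell what part the pericyte markers had.

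Beyond the 10 members, 105 other genes of the pathway were listed in 5 groups, of which 97 were tested. Of these, 35 rose, 25 fell and 37 did not pass (61.9% called if both directions are joined, against 51.8% of all tested genes), with a median log2 fold change of 0.14. Over all tested genes 26.1% rose and 25.6% fell. A count near those shares in a group below is no result about that group.

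Among 19 tested genes of latency and activation, 7 rose and 4 fell (median log2 fold change 0.32). Mmp9, a gelatinase that can free latent ligand, rose from 0.92 ± 0.29 to 23.3 ± 15.0 CPM. Itgav, the integrin alpha subunit that binds the latency peptide, rose 1.79-fold to 102 ± 14.3 CPM. Fbn2, a fibrillin of the microfibrils that hold latent complexes, was 2.21-fold lower at 42.5 ± 10.2 CPM, and the membrane protease gene Mmp14 1.40-fold lower. Lrrc32, which encodes the cell-surface anchor GARP for latent TGF-beta, rose from 5.08 ± 3.33 to 39.5 ± 12.3 CPM, 7.74-fold (log2 fold change 2.95, edgeR adjusted p = 1.15e-05), opposite to Ltbp1 and Ltbp3. Lrrc32 was named after its values were seen. The other Ltbp genes did not pass: Ltbp4 was at 38.9 ± 12.2 and 37.8 ± 6.25 CPM and Ltbp2 at 1.75 ± 1.45 and 2.02 ± 1.84 CPM.

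Other ligands and antagonists were divided, with 5 of 19 rising and 7 falling (median log2 fold change -0.21). Fstl1, a follistatin-like secreted protein, rose 2.11-fold to 167 ± 43.6 CPM, and Inhba, an activin subunit, 2.26-fold to 2.89 ± 0.87 CPM. The subunit gene Inhbb was 3.91-fold lower at 8.89 ± 3.14 CPM, and the BMP antagonist gene Chrd 1.49-fold lower. Of 12 tested receptors and decoys of the wider family, 3 rose and 2 fell (median log2 fold change 0.085). Acvr1, the type I receptor ALK2, rose 1.30-fold and the BMP co-receptor gene Rgmb 1.44-fold, while the activin type II receptor gene Acvr2b was 2.02-fold lower at 25.5 ± 1.33 CPM. Hfe2, a hemojuvelin gene, was at 1.49 ± 1.45 and 0.18 ± 0.12 CPM, 8.06-fold lower.

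Among 24 Smads and regulators, 7 rose and 9 fell (median log2 fold change -0.016). Smad2, a transducer of the ALK5 branch, was 1.89-fold lower at 38.6 ± 3.10 CPM. Pmepa1, an inhibitor induced by TGF-beta that binds SMAD2 and SMAD3, was 3.34-fold lower, from 211 ± 25.2 to 63.3 ± 7.56 CPM. Its relative Ldlrad4 rose 2.84-fold to 9.94 ± 1.43 CPM, and Zfyve9, which presents SMAD2 to the receptor, 1.40-fold. Smad1, Smad3, Smad4, Smad5, Smad7, Smad9, Ski and Skil were named after their values were seen. Smad3 rose 1.30-fold, while the inhibitory Smad7 was 2.07-fold lower and the corepressor genes Ski and Skil 1.49-fold and 1.56-fold lower. Of the ALK1 branch, Smad5 was 1.64-fold lower, from 194 ± 8.79 to 119 ± 6.08 CPM (edgeR adjusted p = 3.22e-07). Smad9, at 1.15 ± 0.24 CPM at P3, rose 1.74-fold (edgeR adjusted p = 0.0281), and Smad1 did not pass (edgeR adjusted p = 0.535). Smad4 was 1.30-fold lower. The Smads of each branch thus moved in both directions.

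Among 24 genes known to respond to the pathway, 13 rose, 3 fell and 8 did not pass (median log2 fold change 0.87). The shares over all tested genes were 26.1% that rose and 25.6% that fell. Loxl2, a collagen-crosslinking oxidase, rose 3.28-fold to 89.6 ± 25.6 CPM and Junb, an immediate early factor, 2.40-fold to 9.94 ± 1.15 CPM. The genes that fell by the naming rule were Id2 (1.80-fold lower) and Id1 (1.47-fold lower), while Id3 and Id4 of the same family rose 1.40-fold and 1.56-fold; Id3 and Id4 were named after their values were seen. This group also holds contractile genes of mural cells. The sum of 18 pericyte markers, of which Rgs5 held the largest part, was 5.50-fold higher at P9 in the same libraries. The part of that marker rise in the response genes was not tested.

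**Figure D5:**
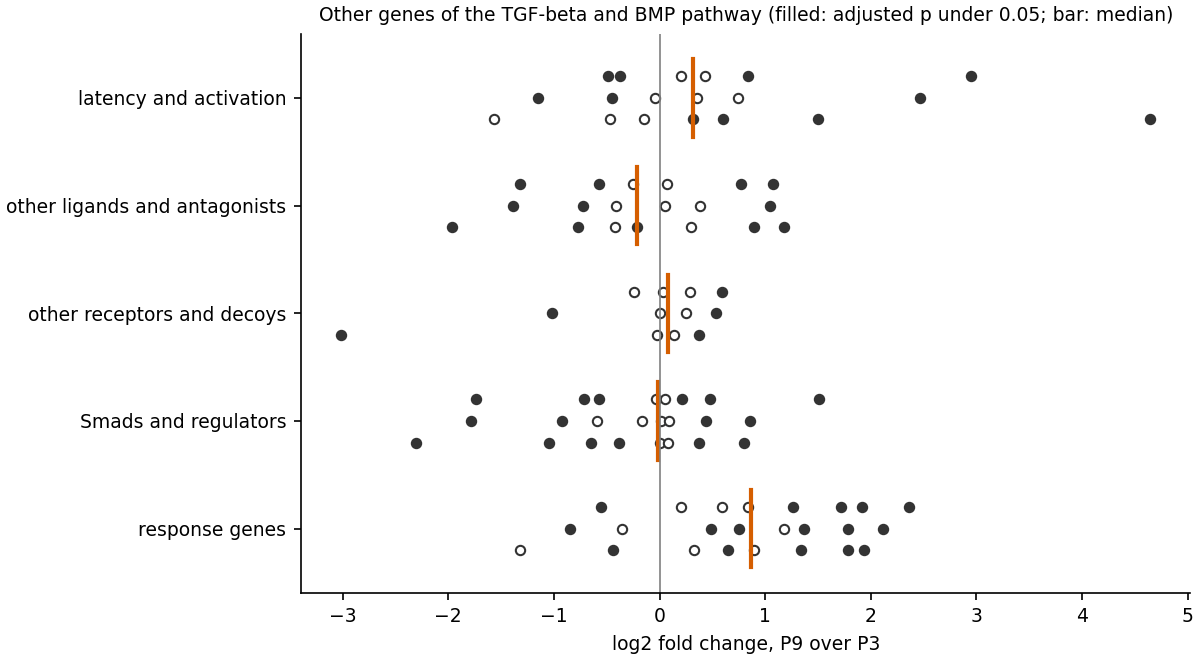
Log2 fold change, P9 over P3, of 97 other tested genes of the TGF-beta and BMP pathway in 5 groups, with 1 point per gene (filled, adjusted p under 0.05), Ltbp2 standing in 2 groups. The orange bar is the group's median, which lies at 0.87 for the response genes and between -0.21 and 0.32 for the other 4 groups.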

How the data were processed

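The deposited tables hold, per the file headers, 1 expected count from RSEM for each gene in each library, not scaled to depth (15.9% of values are not whole). FastQC, Trim Galore, STAR, RSEM and limma with the build mm10 are named, without versions or roles, per the submitters' processing notes; the libraries were stranded, per the labels' protocols. Ages come from the labels, replicates are numbered in deposition order, and the sample names of P9 replicates 5 and 6 are crossed between label and file. The closest libraries, P9 replicates 5 and 6, differed by more than sampling noise (chi-square per degree of freedom 16.5) and were counted separately.

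Counts were rounded, filtered by filterByExpr (34452 rows removed) and scaled by TMM. P9 was tested against P3 by quasi-likelihood in edgeR 4.0.16 (R 4.3.3). Standard errors are the fold change over the square root of F. Of rows that share a symbol (240 repeats) the most abundant was read. Listed names Hjv, Ccn1 and Ccn2 stand in the files as Hfe2, Cyr61 and Ctgf. Log2 values for correlations used CPM without a pseudocount, those for the most similar genes a prior count of 2, and ratios a prior count of 0.5. Correlations were permuted 100000 times. Alternatives included DESeq2 1.42.0 and limma-voom 3.58.1. On simulated counts for P9 against P3 (18253 genes, 200 changed), edgeR recovered 32% of 1.5-fold, 64% of 2-fold, 83.3% of 4-fold and 100% of 8-fold changes, with 4.90% false calls. DESeq2 made 18.4% false calls there and limma-voom 4.51%. In the data 51.8% of tested genes were called, a far larger share than was changed in the simulation, so these rates need not carry over. Coordinates and promoters are from RefSeq. No transcript lengths were used, so levels of different genes are not compared.

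The members were named in full. Of each pathway group the 2 genes with the smallest adjusted p in each direction were named, and for each member the 3 genes with the highest age-centred r. Members, lists and tests were chosen with earlier results of these data known.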

Additional observations from a re-analysis of the deposited data

Results flagged for a closer look

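In 40 groups of 6 values examined for members, their ratios and the pericyte and endothelial sums, 5 values in 4 libraries stood apart by Dixon's ratio (critical value 0.625), and chance gives about 1 in 20 groups. Ltbp3 was at 86.6 CPM in P9 replicate 3, against 55.6 to 66.3 CPM in the other P9 libraries. Tgfbr2 was at 22.0 CPM in P9 replicate 2, against 11.1 to 14.5 CPM in the others. In the same library the log2 ratio of Tgfbr2 to Tgfbr1 was -1.62, against -2.34 to -2.12. Tgfbr3 was at 6.34 CPM in P3 replicate 1, against 2.02 to 3.57 CPM. The log2 ratio of Ltbp1 to Ltbp3 was -3.11 in P9 replicate 4, against -2.35 to -2.09 in the others. P9 replicate 2 also had the highest sum of the 19 endothelial markers without Kdr, 315 CPM, and the highest sum of pericyte markers, 6472 CPM.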

How the results depend on the processing

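No paired analysis was possible because replicates carry no number in the labels. Under the other scalings, without the low-count filter, and with DESeq2 and limma-voom, the 8 called members kept their direction and an adjusted p under 0.05. Leaving out 1 library gave 8 to 9 members called (5 to 6 rose, 3 fell in each) and 53 to 63 pathway genes called (29 to 38 rose, 23 to 26 fell). Those fits called 47.0% to 50.9% of all tested genes, with 23.8% to 26.6% that rose and 23.3% to 25.0% that fell. With a mean of at least 10 CPM, 6 members were tested, 5 were called and 2 rose, and 21 pathway genes rose. That fit called 64.8% of all tested genes, and 31.7% rose, so the 2 members that rose are near that share. With the endothelial mean in the model 17 pathway genes rose, against 17.7% of all tested genes, and the log2 fold change of Tgfb3 was -0.061. With the pericyte mean 2 members were called (1 rose, 1 fell) and 13 pathway genes (1 rose, 12 fell), against 3.61% of all tested genes that rose and 3.51% that fell, with Tgfb3 at -0.28 and Eng at -0.63. With the progenitor mean 0 members and 0 pathway genes were called by edgeR, in either direction, with 0 members at an unadjusted p under 0.05, and the log2 fold changes of Ltbp1 and Ltbp3 turned to 1.67 and 0.59; the cause of these moves was not tested. Leaving out 1 library moved the log2 ratio of Eng to Tgfbr3 between 0.71 and 1.25. Without Kdr, chosen after seeing the data, the log2 ratio of Eng to endothelial markers was 0.31, and the endothelial sum differed by 1.24 in place of -0.33, since Kdr itself fell. With means of log2 values the endothelial list differed by 0.73 and the astrocyte list by 0.57 in place of -0.30. Of 20 correlations 1 passed as planned, 4 with means of log2 values and 3 without Kdr. Under those 2 settings r with endothelial markers changed sign for Tgfb2 (-0.68 and -0.61), Tgfb3 (0.61 and 0.67), Ltbp1 (0.070 and 0.050), Ltbp3 (0.15 and 0.19) and Tgfbr3 (0.29 and 0.26). Depth limits Tgfb1, Tgfbr2, Acvrl1 and Tgfbr3 most, which had 28 to 98 counts in their lowest libraries.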
